A study of Mus musculus with 12 samples.

Results

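Primary fibroblasts of the adventitia, the connective tissue coat around the aorta, were compared between the ascending and the descending thoracic aorta of the mouse after stimulation with TGFβ. The comparison took 6 of the 12 RNA sequencing libraries of the series, chosen by their labels alone: 3 libraries of ascending fibroblasts and 3 of descending fibroblasts, each given 10 ng/mL TGFβ for 48 h. The cells came from wild type C57Bl/6 mice, 14 weeks old by the labels and male by the study's methods, which give another age, and were grown out of adventitia explants in medium with serum. By the methods, the ascending tissue took in the aortic root and the descending tissue reached down as far as the renal arteries. Every library comes from mixed outgrowth of the explant and not from sorted fibroblasts. The other 6 libraries, 3 per site, had no TGFβ. They were used to ask whether a site difference was the same without the cytokine, and in alternative fits that pool more libraries. The labels give 1 batch for all of them. Neither the labels nor the methods say whether the 3 libraries of a group came from separate cultures or animals, so that the p-values below measure the spread between these libraries, which may be technical.

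The fibroblasts of the aortic wall have different embryonic sources along the vessel. The outflow end derives from neural crest and the second heart field, whereas the descending thoracic aorta derives from somitic and other trunk mesoderm, where HOX genes set position along the body axis. TGFβ signals through its receptors and the SMAD proteins and is the classical driver of the myofibroblast state, in which fibroblasts deposit collagen and assemble contractile stress fibers. The question of the comparison was which transcripts still separated the sites when both had received this signal.

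The 6 libraries held 19504767 to 22290136 counts in genes, 19337 to 19882 genes with at least 1 count, and 0.703% to 0.844% of counts in mitochondrially encoded genes. Across the genes tested, the log2 values of a library correlated at 0.9955 to 0.9959 on average with the others of its site and at 0.9736 to 0.9756 with those of the other site. The biological coefficient of variation was 3.47% among the ascending and 4.75% among the descending libraries. Levels are given as normalized CPM, counts scaled to a common library total after correction for composition. A library's detection floor was set at 3 counts, which is 0.137 to 0.156 CPM. All 11 fibroblast markers had enough counts to be tested. They summed to 20192 to 20364 CPM in ascending and 23238 to 25240.0 CPM in descending libraries. Of these markers, 4 were called higher in ascending and 6 in descending fibroblasts. Such sums mainly follow abundant collagen genes. For scale, Col1a1 alone averaged 10464 CPM in ascending and 13134 CPM in descending libraries, whereas Pdgfra averaged 53.3 and 81.7 CPM. The lowest of them were S100a4, at 6.85 and 6.36 CPM, and Lum, at 2.20 and 0.970 CPM. By itself the sum does not settle which cells the libraries held. Endothelial markers summed to 8.92 to 10.98 and 13.1 to 15.4 CPM, with no count for Tie1 and Cldn5. None of the 8 lymphocyte markers had enough counts to be tested. No library of the 6 stood apart, but among those without TGFβ the third descending control library did, with 13031 genes with a count and 11.02% mitochondrial counts. Results resting on it are also given without it.

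Of 13678 genes tested with edgeR's quasi-likelihood test, 4963 differed between the sites at an adjusted p under 0.05, which is 36.3% of the genes. The calls were evenly divided, with 2476 genes (18.1%) higher in ascending and 2487 genes (18.2%) higher in descending fibroblasts. The median log2 fold change over all tested genes was 0.00. Positive values are higher in ascending fibroblasts throughout, and a signed value alone in parentheses after a gene is its log2 fold change. Most differences were small: 1051 calls exceeded a 2-fold difference, 519 higher in ascending and 532 higher in descending, 286 exceeded 4-fold and 116 exceeded 8-fold. Fitted with all 12 libraries, of which the third descending control stands apart, only 1106 genes were called, and 4941 with the other 11. In bulk RNA, fewer cells that express a gene and less RNA of it per cell cannot be told apart.

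The genes named here were those with the largest fold changes among transcripts of at least 20 CPM at the higher site, or with the smallest adjusted p. Cd34, a surface sialomucin that marks adventitial progenitor-like fibroblasts (chr1:194938819-194961279 in GRCm38), was measured at 133, 125 and 122 normalized CPM in the ascending and at 7.44, 6.77 and 5.70 in the descending libraries (log2 fold change 4.26, SE 0.071, adjusted p = 4.7e-27). Gdf6, a ligand of the BMP family (chr4:9844372-9862345), had 321, 349.9 and 335 CPM in ascending and 23.4, 24.8 and 30.0 CPM in descending fibroblasts (log2 fold change 3.68, SE 0.060, adjusted p = 3.8e-27). The lowest ascending library of each gene lay far above the highest descending one. Also higher in ascending fibroblasts were Tubb4a, a beta tubulin (log2 fold change 4.49, SE 0.14), Hsd11b1, which regenerates active glucocorticoid (log2 fold change 3.82, SE 0.14), Sema3f, a secreted semaphorin (log2 fold change 3.01, SE 0.075), Lpcat2, a lysophospholipid acyltransferase (log2 fold change 2.78, SE 0.11), and Clca3a1 (log2 fold change 3.17, SE 0.097), which shares 26.8% of its 50-base transcript sequences with other genes, mostly Clca3a2.

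In the other direction the gene with the smallest adjusted p was C1qtnf3, a secreted C1q/TNF-related protein (chr15:10952332-10980150), at 613, 704 and 565 CPM in descending and 15.8, 13.6 and 15.2 CPM in ascending libraries (log2 fold change -5.40, SE 0.071, adjusted p = 4.0e-29). Igfbp6, which binds insulin-like growth factor II, stood at 146, 142 and 135 CPM against 12.6, 15.8 and 13.8 (log2 fold change -3.32, SE 0.062, adjusted p = 5.5e-26). The descending libraries of both genes were all above the ascending ones. Hp, the hemoglobin scavenger haptoglobin, varied more, with 56.3, 80.3 and 41.8 CPM in descending and 1.31, 0 and 0.422 in ascending fibroblasts (log2 fold change -6.72, SE 0.29, adjusted p = 1.8e-17), a spread that still left no overlap. Folh1, a glutamate carboxypeptidase (log2 fold change -3.69, SE 0.14), and Ppm1l, a protein phosphatase (log2 fold change -3.39, SE 0.12), were higher in descending fibroblasts as well.

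HOX genes were among the strongest differences toward the descending site. Of 39 HOX genes listed, 11 had no count in any of the 6 libraries and 23 could be tested. Of these, 17 were higher in descending fibroblasts (73.9%, against 18.2% of all genes tested), 3 were higher in ascending and 3 were not called. The median log2 fold change was -2.83, both as fitted and with the 7 members at the floor in ascending fibroblasts set to their bound. Hoxc8 (chr15:102990607-102994111) had no count in the 3 ascending libraries and 129, 133 and 122 CPM in the descending ones, at least 894-fold higher when the floor of 3 counts per library stands for the ascending level. Its neighbor Hoxc6 (chr15:102998257-103011881) was at 58.0, 60.5 and 56.4 CPM in descending fibroblasts and at or under the floor in every ascending library, at least 408-fold. The same held for Hoxc4 (at least 65.8-fold), Hoxc5 (at least 84.4-fold) and Hoxc9 (at least 29.2-fold). The tested stretch of the HOXC cluster from Hoxc4 to Hoxc9 was therefore expressed in descending fibroblasts and at the floor in ascending ones.

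The HOXA and HOXB clusters were expressed at both sites at their anterior, low-numbered end and diverged toward the posterior, high-numbered end. In the HOXB cluster the log2 fold change was -0.24 for Hoxb2, which was not called, -0.81 for Hoxb3, which shares 52.9% of its exon bases in position with Hoxb3os, -0.41 for Hoxb4, -1.74 for Hoxb5, -4.82 for Hoxb6, -6.90 for Hoxb7 and -8.69 for Hoxb9. Hoxb4 was at 19.8, 20.7 and 18.7 CPM in ascending and 26.3, 25.1 and 27.3 CPM in descending fibroblasts. Hoxb6 was at 1.41, 1.42 and 1.27 and 39.6, 38.9 and 37.3 CPM, and Hoxb9 (chr11:96271457-96276595) at 0.353, 0.0914 and 0.0469 and 64.6, 66.5 and 72.8 CPM (log2 fold change -8.69, SE 0.16, adjusted p = 5.5e-26). Hoxb8 was at or under the floor in the ascending libraries and at least 233-fold higher in the descending ones. Across the HOXA cluster the log2 fold change ran from 0.29 for Hoxa4, which was not called, to -1.59 for Hoxa5, -2.83 for Hoxa6 and -3.25 for Hoxa7, and Hoxa9 exceeded its ascending floor at least 19.8-fold. Hoxa7 was measured at 4.29, 4.38 and 4.08 CPM in ascending and 38.7, 40.6 and 42.4 CPM in descending libraries, with 20.4% of its exon bases shared in position with the antisense gene Hoxaas3. Among the HOX genes called higher in ascending fibroblasts were Hoxa3 (0.23, with 27.1% of its exon bases overlapping other genes) and Hoxd8 (1.65). Each lost its call when 1 library was left out: without ascending replicate 2 the adjusted p was 0.14 for Hoxa3 and 0.089 for Hoxd8. Without other libraries it also missed the threshold, at 0.079 and 0.11 for Hoxa3 (without ascending replicate 3 and descending replicate 1) and at 0.064 for Hoxd8 (without descending replicate 3). DESeq2 called neither, with adjusted p of 0.094 for Hoxa3 and 0.074 for Hoxd8.

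Transcription factors of the heart and outflow tract formed the counterpart at the ascending site. Of 20 tested, 13 were higher in ascending fibroblasts (65.0%, against 18.1% of all genes tested), 2 were higher in descending and 5 were not called, with a median log2 fold change of 1.20. Tbx20, a T-box factor of the developing heart and valves (chr9:24718138-24774303), was at 46.2, 43.7 and 37.0 CPM in ascending and 0.148, 0.156 and 0.273 CPM in descending libraries (log2 fold change 7.71, SE 0.18, adjusted p = 1.2e-23). Hand2, a bHLH factor of the second heart field (chr8:57320983-57324633), was at 38.0, 36.5 and 37.5 CPM against 1.18, 0.990 and 0.912 (log2 fold change 5.18, SE 0.12, adjusted p = 1.3e-23), with 19.6% of its exon bases shared in position with Hand2os1. For these 2 factors the gap between the sites was wide and the spread within a site narrow. Gata4, a zinc finger factor of the heart (chr14:63198922-63271692), stood at 18.8, 18.6 and 18.1 CPM in ascending fibroblasts and at or under the floor in descending ones, at least 126-fold. Tcf21, a bHLH factor of epicardial and adventitial fibroblasts (chr10:22817281-22820174), stood at 6.05, 6.08 and 7.84 CPM and had no count in the descending libraries, at least 45.3-fold.

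Lower in level but separated in the same direction were Isl1, a marker of second heart field progenitors, with 4.29, 3.47 and 3.80 CPM against 0.345, 0.104 and 0.228, and Nkx2-5, the homeobox factor of cardiac progenitors, with 1.41, 0.914 and 0.751 CPM against a descending level at or under the floor (at least 6.98-fold). Irx5 (4.14), Foxf1 (4.02), Irx3 (3.08) and Heyl (1.52) were also called higher in ascending fibroblasts. Gata6 was expressed at both sites, at 113, 109.9 and 111 CPM in ascending and 58.0, 64.7 and 57.5 CPM in descending libraries (log2 fold change 0.89, SE 0.048). Tbx1 (-2.27) and Tbx3 (-1.93), T-box factors of the pharyngeal region and conduction system, were higher in descending fibroblasts. Of the cardiomyocyte markers, Myh6 and Myh7 had no count and only Tnnt2 passed the filter (log2 fold change 1.45, SE 0.23). The 9 listed summed to 3.61 to 4.36 CPM in ascending and 1.88 to 2.32 CPM in descending fibroblasts. Mesothelial markers summed to 46.9 to 56.0 and 25.5 to 27.9 CPM. Upk3b was higher in ascending fibroblasts at 22.0, 14.2 and 16.9 CPM against 0.591, 1.04 and 0.729 (log2 fold change 4.49, SE 0.20), with Upk1b at 1.04, Krt19 at -1.78 and Wt1 at or under the floor in all 6 libraries. The part of mesothelial cells in the outgrowth in these differences was not tested.

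Neural crest factors did not divide by site in 1 direction. Of 17 tested, 7 were higher in ascending fibroblasts (41.2%, against 18.1%), 7 in descending (41.2%, against 18.2%) and 3 were not called (median 0.17). Sox10, which specifies neural crest and glia, was at 1.87, 1.64 and 2.77 CPM in ascending libraries with no count in descending ones (at least 14.2-fold), beside Tfap2a (3.07) and Alx1 (at least 9.73-fold). Of 6 Schwann cell markers tested, Sox10 itself among them, 3 were higher in ascending fibroblasts and 3 were not called, with Erbb3 at 3.30. The list summed to 20.3 to 22.9 against 13.3 to 15.7 CPM. The part of Schwann cells in the Sox10 difference was not tested. Dlx5 (-2.35), Snai2 (-1.01) and Prrx2 (-0.88) were higher in descending fibroblasts. Among somite and trunk mesoderm factors, 7 of 17 were higher in ascending (41.2%) and 5 in descending fibroblasts (29.4%). Pax1, a paired-box factor of the sclerotome, was at 7.53, 6.41 and 6.88 CPM in descending and 0.202, 0.137 and 0.422 in ascending libraries (log2 fold change -4.74, SE 0.27), Foxd1 had a log2 fold change of -2.40 and Tbx15 of -1.001. Meox1, a homeobox factor of somites and of activated fibroblasts, was higher in ascending fibroblasts at 1.46, 2.60 and 1.92 CPM against 0.640, 0.521 and 0.319 (log2 fold change 2.02, SE 0.35, adjusted p = 2.5e-05), and so were Meis2 (1.05) and Six2 (1.55).

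**Figure D1:**
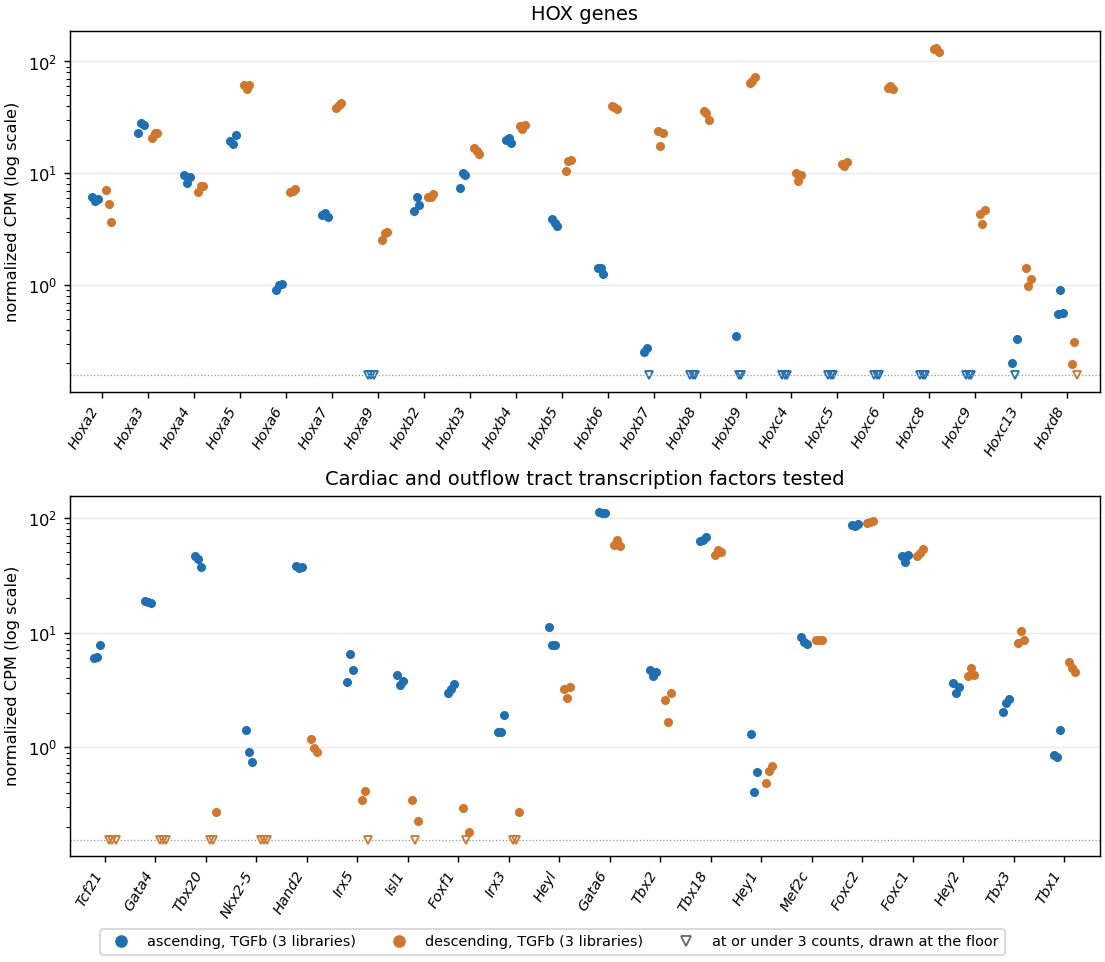
Normalized CPM on a log axis for tested HOX genes (top, ordered along each cluster) and cardiac or outflow tract transcription factors (bottom, ordered by fold change), with 1 point per TGFβ library. Hoxc4 to Hoxc9 lie at the floor in the 3 ascending libraries, and Tcf21, Gata4 and Nkx2-5 lie at it in the 3 descending libraries, drawn as open triangles.

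Promoter sequence was looked at for letters that such factors are known to read. RefSeq promoters of GRCm38.p6, 250 bases before to 50 bases after a start, matched 10144 of the 13678 genes tested by symbol, with 12986 promoters. The motif TTTATGG, read by posterior HOX proteins, was found on either strand in 1.69% of the promoters of all genes tested, in 2.45% for genes higher in descending fibroblasts (60 of 2448) and in 1.44% for genes higher in ascending fibroblasts (36 of 2503). Among calls past 2-fold the shares were 4.46% for descending (20 of 448) and 1.44% for ascending (7 of 486), and over all 32851 promoters of the table the share was 2.75%. Other letters were held by more similar shares of the 2 directions past 2-fold: TGAGTCA of AP-1 in 6.58% for ascending and 5.58% for descending, AGATAA of GATA factors in 9.67% and 9.82%, CAGCTG, an E-box, in 18.7% and 15.6%, and GGAATG of TEAD factors in 14.4% and 15.4%. Over all genes tested these shares were 3.77%, 6.38%, 15.2% and 12.4%, and over all promoters listed they were 5.20%, 11.2%, 16.3% and 14.7%. The palindrome GTCTAGAC of SMAD proteins was found in 0.246% of the promoters of genes tested and 0.213% of the table, and past 2-fold in 2 ascending and 0 descending promoters. These shares are a description of letters and carry no test, and a match is not a bound site.

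The promoters that hold TTTATGG or its reverse, CCATAAA, among genes over 2-fold higher in descending fibroblasts, with at least 20 CPM and 1 promoter in the table, were those of Itga8, the integrin alpha 8 chain, and Plin4, a lipid droplet coat protein. Genes with only a Gm number or Rik name, and the promoters of a chromosome that was set aside, were not considered. Itga8 was at 44.3, 47.3 and 47.9 CPM in descending and 9.23, 8.45 and 9.25 CPM in ascending libraries (log2 fold change -2.37, SE 0.075, adjusted p = 1.4e-20), and Plin4 at 24.4, 27.9 and 21.3 and 9.88, 9.77 and 10.6 (log2 fold change -1.28, SE 0.097, adjusted p = 6.7e-12). They are shown 5′ to 3′ along the transcribed strand with the matched letters in capitals. The Itga8 promoter lies at chr2:12301895-12302194 and the Plin4 promoter at chr17:56109733-56110032, both on the minus strand.
Itga8: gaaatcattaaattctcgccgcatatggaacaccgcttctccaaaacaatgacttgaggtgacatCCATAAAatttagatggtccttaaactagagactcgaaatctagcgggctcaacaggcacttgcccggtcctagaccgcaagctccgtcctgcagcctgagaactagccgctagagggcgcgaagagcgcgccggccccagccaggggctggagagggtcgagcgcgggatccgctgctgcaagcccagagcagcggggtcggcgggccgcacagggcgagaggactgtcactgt
Plin4: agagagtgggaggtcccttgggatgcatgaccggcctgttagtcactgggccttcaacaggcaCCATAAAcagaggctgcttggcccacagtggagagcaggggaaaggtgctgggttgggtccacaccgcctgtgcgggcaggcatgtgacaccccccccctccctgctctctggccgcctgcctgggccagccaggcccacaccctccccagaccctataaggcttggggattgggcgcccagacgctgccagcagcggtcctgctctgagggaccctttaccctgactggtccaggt

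By the same rule, TGAGTCA or its reverse, TGACTCA, was found in the promoters of Ezr and Tor4a among genes higher in ascending fibroblasts. This list was cut at the genes with the largest differences and may not be complete. Ezr encodes ezrin, which links actin to the plasma membrane, and was at 53.0, 50.4 and 53.5 CPM in ascending and 11.4, 11.1 and 11.1 CPM in descending libraries (log2 fold change 2.22, SE 0.069, adjusted p = 7.6e-21). Tor4a, a torsin ATPase, was at 20.8, 22.3 and 21.2 and 11.03, 10.6 and 10.0 CPM (log2 fold change 1.02, SE 0.088, adjusted p = 9.5e-11), and its promoter also holds TTATCT, the reverse of the GATA letters. The promoters lie at chr17:6782731-6783030 and chr2:25196764-25197063, on the minus strand.
Ezr: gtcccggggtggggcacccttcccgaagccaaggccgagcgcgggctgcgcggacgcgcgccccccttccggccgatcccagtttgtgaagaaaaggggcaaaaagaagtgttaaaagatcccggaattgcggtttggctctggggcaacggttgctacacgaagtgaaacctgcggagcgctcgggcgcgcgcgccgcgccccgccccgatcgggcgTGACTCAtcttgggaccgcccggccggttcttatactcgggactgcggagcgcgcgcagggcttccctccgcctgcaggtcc
Tor4a: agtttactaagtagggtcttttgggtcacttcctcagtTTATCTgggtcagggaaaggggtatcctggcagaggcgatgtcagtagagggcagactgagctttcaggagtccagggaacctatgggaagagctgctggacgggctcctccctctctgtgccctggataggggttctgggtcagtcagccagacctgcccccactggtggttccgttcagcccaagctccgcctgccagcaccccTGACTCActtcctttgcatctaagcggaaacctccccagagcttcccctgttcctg

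Gene lists by function divided unevenly between the sites. Beside 18.1% and 18.2% of all genes tested, the lists whose calls lay mostly at the descending site included HOX genes, adipogenic and lipid handling genes, contractile genes, cholesterol synthesis genes, Wnt pathway genes and collagen chains. Those whose calls lay mostly at the ascending site included the cardiac factors and the cell cycle genes. Every functional list had a larger share of its tested members called, in either direction, than the 36.3% of all genes tested. These shares ran from 41.4% for interferon-stimulated and MHC class I genes to 87.9% for collagen chains. A share above that of all genes was thus common to the lists and particular to none. The counts below describe these lists and carry no test of a list against other genes.

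**Figure D2:**
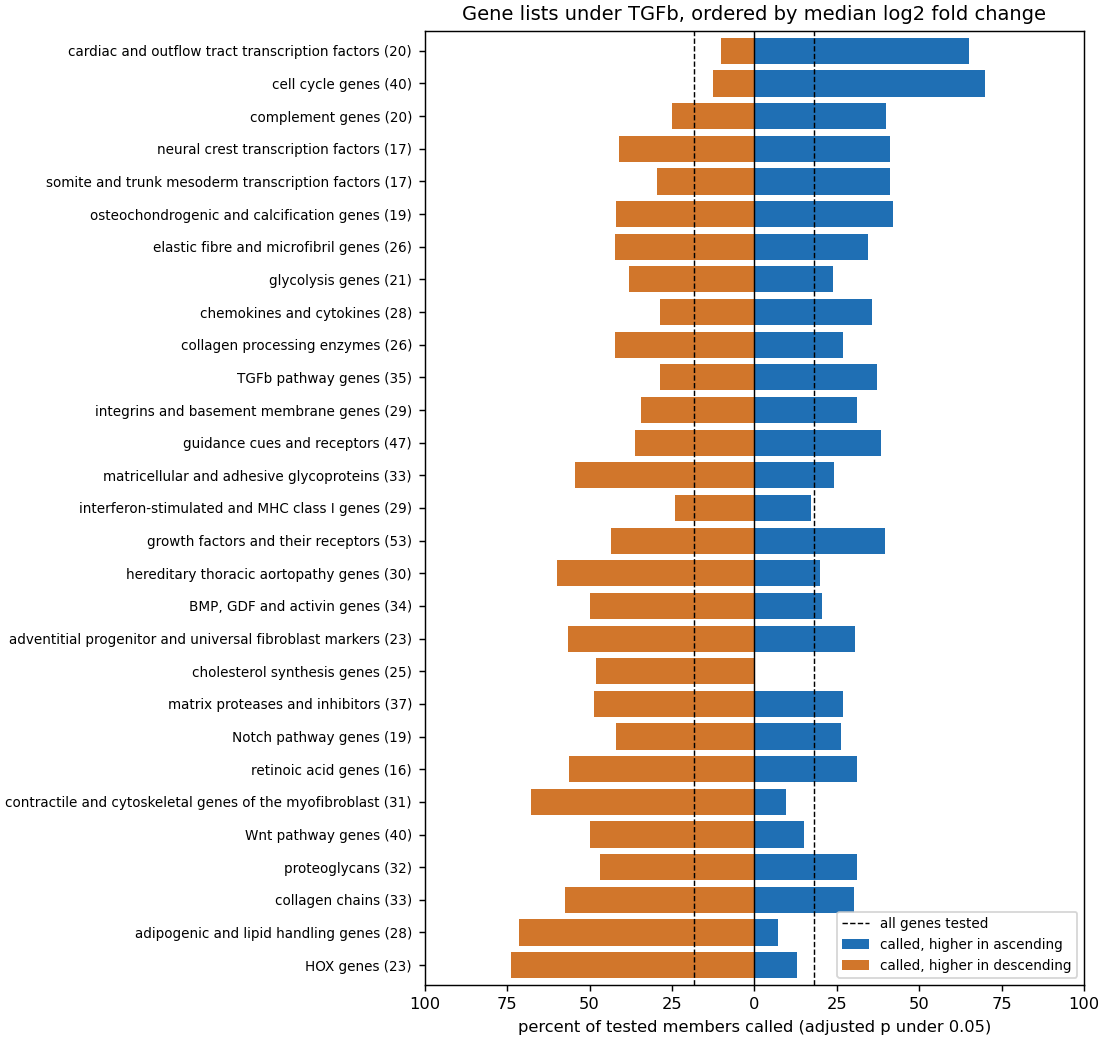
Percent of the tested members of each gene list that were called higher in ascending (to the right) or in descending fibroblasts (to the left) under TGFβ, ordered by the list's median log2 fold change, with the number tested in parentheses. Dashed lines mark the shares of all genes tested, 18.1% and 18.2%.

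Collagen chains, the load-bearing product of the TGFβ response, were mostly higher in descending fibroblasts. Of 33 collagen chains tested, 19 were higher in descending (57.6%, against 18.2% of all genes tested) and 10 in ascending (30.3%, against 18.1%). The other 4 were not called, and the median log2 fold change was -0.46. Col1a1, the main chain of type I collagen, was at 12206, 13645 and 13551 CPM in descending and 10545, 10526 and 10322 CPM in ascending libraries (log2 fold change -0.33, SE 0.036, adjusted p = 1.8e-08), and Col1a2, its partner chain, at 7897, 8441 and 8274 and 6147, 6207 and 6371 CPM (log2 fold change -0.39, SE 0.033, adjusted p = 7.1e-11). These differences were of modest size and larger than the spread, with no overlap. Per kilobase of exon, Col1a1 stood at 1594 CPM in ascending and 2001 in descending fibroblasts, against 241 and 161 for Col3a1. Col3a1, the chain of type III collagen, went the other way, at 2474, 2298 and 2324 CPM in ascending and 1620.1, 1607 and 1525 CPM in descending libraries (log2 fold change 0.58, SE 0.036, adjusted p = 1.1e-13). Col5a1, which nucleates fibrils, was lower in ascending fibroblasts (log2 fold change -0.93, SE 0.038) and its partner Col5a2 slightly higher (log2 fold change 0.24, SE 0.032).

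Toward the descending side the widest collagen difference was in type VI, the beaded microfibrillar collagen of the pericellular matrix. Col6a3 (chr1:90765923-90843971) was at 366, 376 and 416 CPM in descending and 35.9, 44.7 and 40.6 CPM in ascending libraries (log2 fold change -3.25, SE 0.058, adjusted p = 2.5e-26). The chains it assembles with differed less, with Col6a1 at 199, 186 and 194 CPM in ascending and 259, 274 and 264 in descending fibroblasts (log2 fold change -0.46, SE 0.040), and Col6a2 at a log2 fold change of -0.73. Several other chains were higher in descending fibroblasts: Col2a1, the cartilage collagen, at 543, 617 and 618 CPM against 154, 151 and 183 (log2 fold change -1.87, SE 0.055, adjusted p = 3.3e-21), Col8a2 (-2.62), Col10a1 (-2.02), Col12a1 (-0.79) and Col8a1 (-0.65). On the ascending side, Col14a1, a fibril-associated collagen, had the widest difference, at 29.0, 33.8 and 27.7 CPM against 1.72, 2.08 and 1.41 (log2 fold change 4.12, SE 0.13, adjusted p = 1.3e-20).

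The network collagens of basement membranes split by chain. Col4a1 (log2 fold change -0.51, SE 0.037) and Col4a2 (-0.72), the common chains, were higher in descending fibroblasts. Col4a3 at 31.4, 33.8 and 32.3 CPM against 6.99, 10.3 and 9.03 (log2 fold change 1.89, SE 0.095), Col4a4 (1.25) and Col4a6 at 34.1, 31.5 and 33.2 CPM against 5.71, 4.84 and 6.24 (log2 fold change 2.55, SE 0.094) were higher in ascending fibroblasts. Col18a1, the source of endostatin (1.25), and Col28a1 (1.21) were also higher in ascending fibroblasts. Collagen processing enzymes differed little in size, with 7 of 26 higher in ascending (26.9%, against 18.1%), 11 in descending (42.3%, against 18.2%) and a median of -0.04. Pcolce2, which enhances procollagen C-proteinase, stood out on the ascending side, at 106, 111 and 113 CPM against 20.3, 18.7 and 18.0 (log2 fold change 2.53, SE 0.056, adjusted p = 4.5e-24), and P3h2, a collagen prolyl hydroxylase, was higher in descending fibroblasts (log2 fold change -2.18, SE 0.24), with 28.4% of its exon bases overlapping Gm4524. Chondrocyte markers were split: 2 of 4 tested, Col2a1 among them, were higher in descending and 2 in ascending fibroblasts, and the list, most of it Col2a1 itself, summed to 163 to 197 CPM in ascending and 551 to 625 CPM in descending fibroblasts, with no count for Col9a1, Matn1 and Hapln1.

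**Figure D3:**
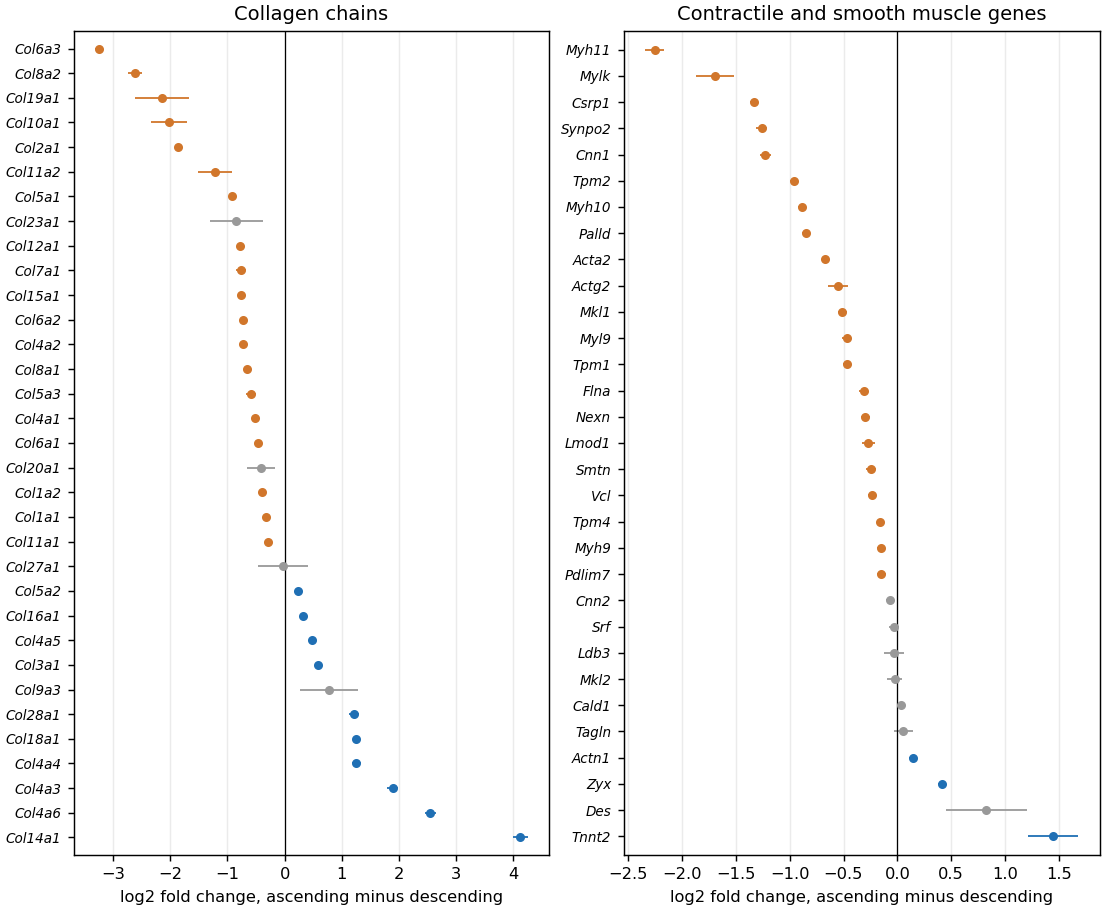
Log2 fold change between the sites under TGFβ, with bars for SE, of tested collagen chains (left) and contractile or smooth muscle genes (right). Blue points were called higher in ascending, orange points higher in descending and gray points were not called. The left column runs from Col6a3 at -3.25 to Col14a1 at 4.12, and the right column lies mostly to the left of 0.

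Elastic fibre genes were divided, with 9 of 26 higher in ascending (34.6%, against 18.1%), 11 in descending (42.3%, against 18.2%) and a median of 0.02. Eln, which encodes tropoelastin, was at 2774, 2379 and 2458 CPM in ascending and 1661, 1578 and 1664 CPM in descending libraries (log2 fold change 0.63, SE 0.043, adjusted p = 5.1e-13). Fbn1, the main fibrillin of adult microfibrils, was near equal, at 1879, 1931 and 1761 CPM and 1937, 2165 and 2205 CPM (log2 fold change -0.18, SE 0.042, adjusted p = 0.0011), and 20.1% of its exon bases overlap Gm9913. Fbn2, the fibrillin of development, was low and almost confined in level to descending fibroblasts, at 4.58, 5.31 and 4.01 CPM against 0.807, 0.228 and 0.375 (log2 fold change -3.31, SE 0.29, adjusted p = 2.1e-10). Mfap2, a microfibril-associated glycoprotein (-1.61), Emilin2 (-1.43), the latent TGFβ binding protein family member Ltbp2 (-0.79) and the crosslinking enzymes Lox (log2 fold change -0.27, SE 0.032) and Loxl2 (-0.26), which shares 45.0% of its 50-base transcript sequences with other genes, mostly Gm21451, were higher in descending fibroblasts. Fbln1, a fibulin (0.59), and Ltbp3, which holds latent TGFβ in the matrix (0.30), were higher in ascending fibroblasts.

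Of 32 proteoglycan genes tested, 10 were higher in ascending (31.25%, against 18.1%) and 15 in descending fibroblasts (46.9%, against 18.2%), with a median of -0.41. The small leucine-rich proteoglycans Dcn, at 85.4, 83.6 and 78.1 CPM in ascending and 38.1, 37.6 and 34.5 CPM in descending libraries (log2 fold change 1.17, SE 0.054, adjusted p = 9.4e-17), and Prelp (log2 fold change 1.19, SE 0.058) were higher in ascending fibroblasts. Aspn, of the same family, was higher in descending ones (log2 fold change -2.42, SE 0.10). Vcan, the large hyaluronan-binding proteoglycan of provisional matrix, was at 164, 160.3 and 179 CPM in descending and 52.9, 53.8 and 51.7 CPM in ascending libraries (log2 fold change -1.67, SE 0.048, adjusted p = 1.4e-21). Acan, its cartilage relative, was low and higher in ascending fibroblasts, at 1.71, 3.97 and 4.55 CPM against a level at or under the floor (at least 23.2-fold).

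Of 33 matricellular and adhesive glycoproteins, 18 were higher in descending (54.5%, against 18.2%) and 8 in ascending fibroblasts (24.2%, against 18.1%). The other 7 were not called (median -0.12). Thbs1, thrombospondin 1, which can release TGFβ from its latent complex, was at 17174, 18325 and 18394 CPM in descending and 7238, 7499 and 7296 CPM in ascending libraries (log2 fold change -1.29, SE 0.034, adjusted p = 2.0e-22). Tnc, the tenascin of remodeling matrix, was at 267, 281 and 308 and 111, 104 and 100.6 CPM (log2 fold change -1.44, SE 0.048, adjusted p = 5.1e-20). Both genes had descending libraries above every ascending one by more than 2-fold. Comp, cartilage oligomeric matrix protein, was lower in level and further apart, at 54.7, 65.0 and 53.0 CPM against 7.81, 6.53 and 7.32 (log2 fold change -2.99, SE 0.088, adjusted p = 2.5e-21), and Svep1 (-1.65) and Sparcl1 (-2.77) were higher in descending fibroblasts as well. Fn1 and Postn, standard readouts of fibroblast activation, were slightly higher in ascending fibroblasts, Fn1 at 20641, 21718 and 20313 CPM against 16668, 18291 and 17905 (log2 fold change 0.25, SE 0.035) and Postn at 642, 645 and 649 CPM against 540.2, 546 and 513 (log2 fold change 0.28, SE 0.036). Ctgf, a direct TGFβ target, differed by -0.12 on the log2 scale (adjusted p = 0.0061, and 0.056 without ascending replicate 2), and Wisp1 was not called (-0.03).

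Matrix turnover genes favored descending fibroblasts by number, but the gelatinases favored the ascending site. Of 37 tested, 18 were higher in descending (48.6%, against 18.2%) and 10 in ascending fibroblasts (27.0%, against 18.1%). Mmp2 was at 1003, 957 and 965 CPM in ascending and 434, 454 and 423 CPM in descending libraries (log2 fold change 1.16, SE 0.037, adjusted p = 2.0e-20), and Mmp9, though low, had a log2 fold change of 3.66 (SE 0.45). Mmp3, a stromelysin (2.13), and Mmp16 (1.38) were higher in ascending fibroblasts too. Of the inhibitors, Timp1 was higher in ascending (log2 fold change 0.51, SE 0.038) and Timp3 in descending fibroblasts (log2 fold change -0.68, SE 0.039), with 21.3% of the Timp3 exon bases inside Syn3. Of 29 integrin and basement membrane genes, 9 were higher in ascending (31.0%) and 10 in descending fibroblasts (34.5%). Itga3, a laminin receptor chain, was at 26.2, 25.8 and 26.3 CPM against 4.58, 5.05 and 3.56 (log2 fold change 2.58, SE 0.11) and Lama5, a laminin chain, at 81.6, 80.7 and 82.0 CPM against 18.7, 19.8 and 19.2 (log2 fold change 2.08, SE 0.056), both higher in ascending fibroblasts, as was Itga4 (1.43). Itga11, a collagen receptor chain of myofibroblasts, was at 425, 454 and 454 CPM in descending and 199.7, 226 and 217 CPM in ascending libraries (log2 fold change -1.05, SE 0.043).

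Contractile genes, the other arm of the myofibroblast program, were mostly higher in descending fibroblasts. Of 31 tested, 21 were higher in descending (67.7%, against 18.2%), 3 were higher in ascending and 7 were not called, with a median log2 fold change of -0.27. Acta2, smooth muscle actin, was at 7764, 7642 and 7327 CPM in descending and 4815, 4729 and 4741 CPM in ascending libraries (log2 fold change -0.67, SE 0.033, adjusted p = 3.7e-16). Myh11, smooth muscle myosin heavy chain, was at 64.9, 78.0 and 72.9 and 17.0, 16.2 and 12.0 CPM (log2 fold change -2.25, SE 0.084, adjusted p = 6.6e-19), and Cnn1, calponin, at 96.7, 94.7 and 101.01 and 43.7, 41.0 and 40.5 CPM (log2 fold change -1.22, SE 0.049, adjusted p = 3.9e-18). In each of these the groups did not overlap. The LIM protein gene Csrp1 (-1.33), Mylk, the myosin light chain kinase (-1.69), Tpm2, a tropomyosin (-0.96), and Palld, palladin (-0.85), were higher in descending fibroblasts, and Actn1, an actinin of focal adhesions, slightly higher in ascending ones (0.14). Tagln, at 20.2, 18.1 and 20.9 CPM in ascending and 19.6, 16.6 and 20.6 CPM in descending fibroblasts, was not called, but 67.9% of its exon bases overlap Gm48529, and its level was not read further.

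Markers of other contractile cells moved with this group. Of 8 smooth muscle cell markers tested, of which 7 are also in the contractile list, 6 were higher in descending fibroblasts and 1, Kcnmb1, in ascending (1.80). The list summed to 228 to 243 CPM in ascending and 417 to 442 CPM in descending libraries. Myocd, the coactivator that defines smooth muscle, was too low to be tested. The 3 pericyte markers tested were all higher in descending fibroblasts, Rgs5 at 43.1, 41.9 and 39.0 CPM against 19.3, 16.0 and 18.2 (log2 fold change -1.21, SE 0.073) and Cspg4 at -1.04. The list, in which Kcnj8 had no count, summed to 230.2 to 249 against 457 to 518 CPM. The part of smooth muscle cells and pericytes of the explant in these differences was not tested.

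In the TGFβ pathway itself the ligands were lower and several intracellular components higher in ascending fibroblasts. Of 35 genes tested, 13 were higher in ascending (37.1%, against 18.1%), 10 in descending (28.6%, against 18.2%) and 12 were not called (median -0.06). Tgfb3 was at 242, 252 and 236 CPM in descending and 101.4, 94.5 and 93.9 CPM in ascending libraries (log2 fold change -1.33, SE 0.043, adjusted p = 2.0e-20), Tgfb1 at 83.3, 93.8 and 78.2 and 51.1, 50.7 and 49.5 CPM (log2 fold change -0.75, SE 0.056, adjusted p = 4.2e-12), and Tgfb2 at a log2 fold change of -0.23. All 3 ligand genes were thus higher in descending fibroblasts. The receptor gene Tgfbr1 was at 70.7, 70.2 and 66.4 CPM in descending and 40.03, 40.9 and 40.1 CPM in ascending fibroblasts (log2 fold change -0.78, SE 0.051, adjusted p = 2.9e-13). Tgfbr2 was near equal (log2 fold change -0.13, SE 0.045, adjusted p = 0.02), and its call was lost without descending replicate 2 or ascending replicate 2 or 3 (adjusted p 0.075, 0.10 and 0.11).

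Downstream, Smad3, a receptor-activated transducer of the signal, was at 57.1, 60.9 and 60.6 CPM in ascending and 34.2, 35.4 and 35.4 CPM in descending libraries (log2 fold change 0.77, SE 0.054, adjusted p = 1.4e-12), while Smad2 (-0.06) and Smad4 (0.08) were not called. The inhibitory Smad6 (log2 fold change 0.32, SE 0.044) and Smad7 (log2 fold change 0.19, SE 0.046) and the ubiquitin ligase Smurf2, at 284, 294 and 287 CPM against 161, 151 and 169 (log2 fold change 0.84, SE 0.042, adjusted p = 4.8e-16), were higher in ascending fibroblasts. Itgb8, an integrin chain that activates latent TGFβ, was higher in ascending fibroblasts at 5.24, 4.43 and 5.77 CPM against 1.58, 2.55 and 1.504 (log2 fold change 1.46, SE 0.21). The feedback targets Skil, at 0.02, and Pmepa1, at -0.16, differed by little, and only Pmepa1 was called.

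Among BMP, GDF and activin genes, 7 of 34 were higher in ascending and 17 in descending fibroblasts (median -0.16). Ligands lay on both sides: beside Gdf6, Bmp4 was at 83.5, 84.4 and 81.2 CPM in ascending and 19.5, 21.8 and 17.5 CPM in descending libraries (log2 fold change 2.09, SE 0.062, adjusted p = 4.0e-21), whereas Bmp2, though low, was higher in descending fibroblasts at 3.45, 2.87 and 3.10 CPM against 0.202, 0.548 and 0.469 (log2 fold change -2.91, SE 0.31). Antagonists also differed, with Bmper higher in ascending (1.24) and Grem1, at 155, 167 and 146 CPM against 73.2, 70.6 and 82.4, and Fst (-0.999) higher in descending fibroblasts. The transcriptional targets Id3, at 219, 236 and 234 CPM in descending and 164, 156 and 159 CPM in ascending libraries, Id1 (-0.26) and Id4 (-2.77) were higher in descending fibroblasts, and Id2 (-0.04) was not called.

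Wnt pathway genes were higher in descending fibroblasts in 20 of 40 cases and higher in ascending in 6, with a median of -0.27. Rspo2, which amplifies Wnt signals, was at 15.8, 16.8 and 15.04 CPM against 6.15, 3.75 and 4.88 (log2 fold change -1.69, SE 0.13). The secreted antagonists Sfrp4, at 10.8, 8.54 and 11.3 CPM in ascending and 1.97, 3.23 and 2.69 CPM in descending libraries (log2 fold change 1.96, SE 0.16), and Sfrp2, at low counts (log2 fold change 2.61, SE 0.50), were higher in ascending fibroblasts. In the Notch pathway, 5 of 19 were higher in ascending (26.3%) and 8 in descending fibroblasts (42.1%). Dlk1, a noncanonical ligand, was at 97.2, 112 and 95.3 CPM in descending libraries against 21.5, 23.9 and 21.8 (log2 fold change -2.18, SE 0.063). Retinoic acid genes gave 5 of 16 higher in ascending (31.25%) and 9 in descending fibroblasts (56.25%). Aldh1a2, the synthesizing enzyme of the embryonic heart, was at 26.8, 21.8 and 24.0 CPM in ascending and 4.38, 3.49 and 3.51 CPM in descending libraries (log2 fold change 2.67, SE 0.12, adjusted p = 2.2e-17). Rarb, a receptor and target of retinoic acid, was higher in ascending fibroblasts (1.71), with 38.4% of its exon bases overlapping Top2b.

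Growth factors and their receptors were divided nearly evenly, with 21 of 53 higher in ascending (39.6%, against 18.1%) and 23 in descending fibroblasts (43.4%, against 18.2%). Higher in descending fibroblasts were Vegfa, the angiogenic factor, at 342, 379 and 349.9 CPM against 176, 179 and 181 (log2 fold change -0.999, SE 0.041, adjusted p = 6.1e-18), Igfbp4, at 32.8, 32.4 and 29.4 CPM against 7.92, 8.45 and 8.40 (log2 fold change -1.93, SE 0.085), Fgf18 (-1.33) and Fgf10 (-1.68). Pdgfb (log2 fold change 1.85, SE 0.20), Gdnf (1.12) and Igf1 (0.68) were higher in ascending fibroblasts. Guidance cues split 18 to 17 of 47 (38.3% and 36.2%). Slit3, a repulsive cue, was at 198, 238 and 209.8 CPM in descending and 75.9, 71.9 and 67.7 CPM in ascending libraries (log2 fold change -1.59, SE 0.055, adjusted p = 1.1e-19), and Efna3, an ephrin, had -2.28. Sema4f (2.65), Ephb2 (1.58) and Efna5 (1.42) lay on the ascending side with Sema3f.

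Of 28 chemokine and cytokine genes, 10 were higher in ascending (35.7%, against 18.1%) and 8 in descending fibroblasts (28.6%, against 18.2%). Cxcl12, the stromal ligand of CXCR4, was at 1042, 1027 and 1009 CPM in ascending and 354, 383 and 334 CPM in descending libraries (log2 fold change 1.52, SE 0.042, adjusted p = 4.9e-22). Il6 was moderately higher in ascending fibroblasts (log2 fold change 0.52, SE 0.073). Il11, a cytokine of fibrosis, was higher in descending ones at 21.6, 19.5 and 19.0 CPM against 8.07, 9.36 and 8.68 (log2 fold change -1.20, SE 0.096), as were Ccl7 (-1.76) and the IL-33 receptor gene Il1rl1 (-3.43). Lcn2, lipocalin 2, was at 3.35, 5.05 and 1.504 CPM in descending fibroblasts and at or under the floor in ascending ones (at least 23.1-fold). Complement genes gave 8 of 20 higher in ascending and 5 in descending fibroblasts: C3 (log2 fold change 1.53, SE 0.16), Clu (1.92) and C4b, which shares 34.6% of its 50-base transcript sequences with other genes, mostly C4a (1.29), were higher in ascending fibroblasts. Cfd, the adipsin of fat cells, was at least 11.8-fold higher in descending ones. Macrophage markers moved with the ascending site: 4 of 10 tested were higher there and 6 were not called. The list summed to 32.9 to 47.6 against 16.1 to 29.3 CPM, with Lyz2 at 29.8, 27.3 and 19.9 CPM against 11.8, 18.8 and 7.02. Of these 4 calls DESeq2 made 1 and a fit of 11 libraries made 0, and their part in the complement difference was not tested. Of 29 interferon-stimulated and MHC class I genes tested, 5 were higher in ascending fibroblasts, 7 were higher in descending and 17 were not called, so that 41.4% were called against 36.3% of all genes.

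Among the functional gene lists, marker lists left aside, adipogenic and lipid handling genes had the lowest median after the HOX genes. Of 28 tested, 20 were higher in descending fibroblasts (71.4%, against 18.2%), 2 were higher in ascending and 6 were not called (median -0.89). Lpl, lipoprotein lipase, was at 59.1, 61.6 and 48.7 CPM in descending and 5.75, 5.48 and 5.30 CPM in ascending libraries (log2 fold change -3.35, SE 0.094, adjusted p = 8.4e-22). Fabp4, the fatty acid carrier of adipocytes, was at 23.1, 25.7 and 14.7 and 1.56, 2.47 and 2.11 CPM (log2 fold change -3.35, SE 0.18, adjusted p = 4.6e-15) and Adipoq, adiponectin, at 6.89, 8.44 and 4.83 and 0.302, 0.0457 and 0.0939 CPM (log2 fold change -5.49, SE 0.36, adjusted p = 2.3e-13). The third descending library had the lowest level of each of these 3 among the descending libraries and still exceeded every ascending one. Plin1, the perilipin of fat droplets, exceeded its ascending floor at least 32.6-fold. The adipogenic regulators Cebpa (log2 fold change -1.54, SE 0.12), Ebf2 (-1.83) and Pparg (log2 fold change -0.62, SE 0.10) were higher in descending fibroblasts, and Cebpd in ascending ones, at 78.0, 80.8 and 82.6 CPM against 46.2, 45.1 and 43.0 (log2 fold change 0.85, SE 0.050).

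Adipocyte markers, 3 of which are also members of that list, were higher in descending fibroblasts in all 4 tested cases, and summed to 2.12 to 2.51 CPM in ascending and 24.2 to 43.5 CPM in descending libraries. Their median log2 fold change was -5.45 as fitted and -4.51 with the 2 members at the floor set to their bound. Of the defining markers, Ucp1 and Lep were too low to be tested. The part of adipocytes or their precursors from tissue around the vessel was not tested. Adventitial progenitor and universal fibroblast markers were mixed, with 7 of 23 higher in ascending (30.4%, against 18.1%) and 13 in descending fibroblasts (56.5%, against 18.2%). Pi16, a marker of universal fibroblasts, was at 21.1, 22.97 and 23.02 CPM in descending and 6.15, 5.34 and 4.60 CPM in ascending libraries (log2 fold change -2.06, SE 0.11), opposite to Cd34.

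**Figure D4:**
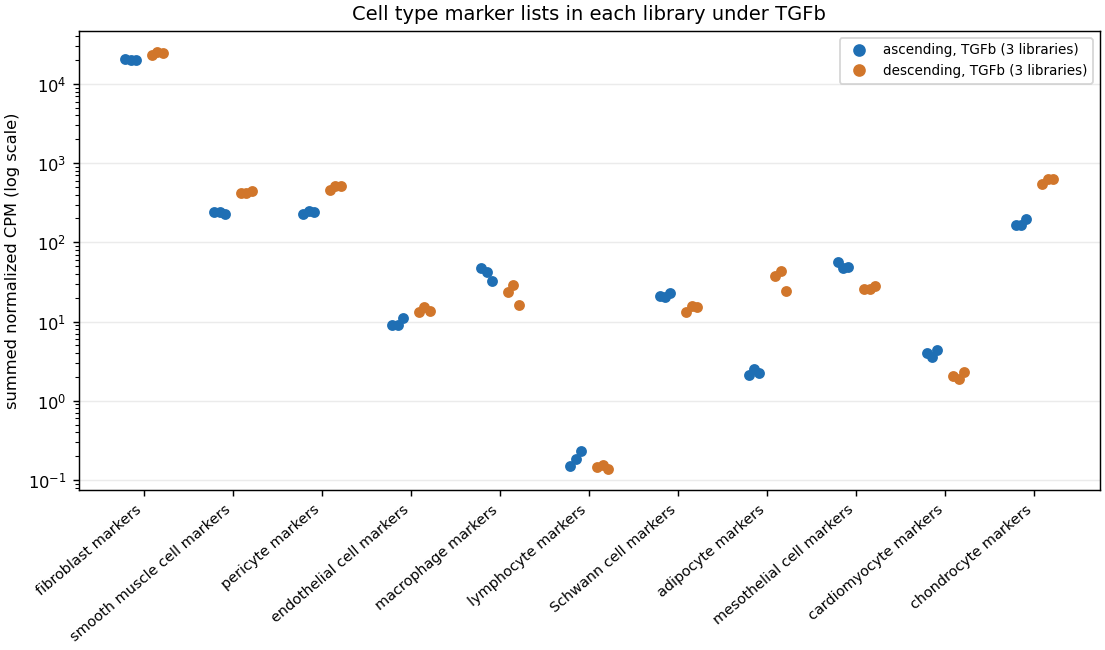
Summed normalized CPM on a log axis of each cell type marker list, with 1 point per TGFβ library. Smooth muscle cell, pericyte, endothelial, adipocyte and chondrocyte lists were higher in the descending libraries, and macrophage, Schwann cell, mesothelial and cardiomyocyte lists in the ascending libraries, while fibroblast markers stood at 20192 to 20364 CPM in the ascending and 23238 to 25240.0 CPM in the descending libraries.

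Cell cycle genes were the list with the most calls on the ascending side. Of 40 tested, 28 were higher in ascending fibroblasts (70.0%, against 18.1%), 5 were higher in descending and 7 were not called, with a median log2 fold change of 0.58. Mki67, the proliferation antigen Ki-67, was at 38.1, 32.2 and 34.8 CPM in ascending and 16.0, 16.0 and 20.1 CPM in descending libraries (log2 fold change 1.01, SE 0.084, adjusted p = 5.0e-11). Top2a, a mitotic topoisomerase (log2 fold change 0.94, SE 0.068), Cdk1 (log2 fold change 0.92, SE 0.085), the mitotic kinases Plk1 (log2 fold change 1.14, SE 0.12) and Aurkb (log2 fold change 1.43, SE 0.16) and the replication licensing factor Mcm5 (log2 fold change 1.09, SE 0.11) were higher in ascending fibroblasts. The 5 members higher in descending fibroblasts included 4 inhibitors of cyclin-dependent kinases: Cdkn1a, which encodes p21, at 775, 779 and 729 CPM against 417, 399 and 416 (log2 fold change -0.89, SE 0.037, adjusted p = 1.0e-17), Cdkn2b at 168, 173 and 162 CPM against 86.9, 83.7 and 87.4 (log2 fold change -0.96, SE 0.043, adjusted p = 3.9e-17), Cdkn2a (log2 fold change -0.64, SE 0.053) and the low Cdkn1c (-1.35), of whose exon bases 30.7% overlap Gm44732. The other was the cyclin gene Ccnd2 (-0.21). Cell number and cell cycle phase were not analysed here.

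Metabolic lists differed by less. Cholesterol synthesis genes had 12 of 25 higher in descending fibroblasts (48.0%, against 18.2%) and 13 not called. The differences were small, such as -0.47 for Sqle, the squalene epoxidase (median -0.19). Glycolysis genes gave 5 of 21 higher in ascending (23.8%, against 18.1%) and 8 in descending fibroblasts (38.1%, against 18.2%), with a median of 0.01. Of 12 mitochondrially encoded genes tested, 5 were higher in descending fibroblasts (41.7%). That count rested on single libraries, with 0 left without descending replicate 1 or ascending replicate 1, 1 without ascending replicate 2 and 3 without descending replicate 3. Osteochondrogenic and calcification genes were divided at 8 and 8 of 19 (42.1% each).

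Hereditary thoracic aortopathy genes, in which mutations cause aneurysm and dissection, were mostly higher in descending fibroblasts. Of 30 tested, 18 were higher in descending, 6 were higher in ascending and 6 were not called (median -0.16). The descending side held the contractile genes Myh11, Mylk and Acta2, the ligands Tgfb3 and Tgfb2, the receptors Tgfbr1 and Tgfbr2 and the matrix genes Col5a1, Col1a1, Col1a2, Lox and Fbn1, with the values given above. The 6 on the ascending side were Smad3, Eln, Col3a1, Ltbp3, Col5a2 and Ski, a corepressor of SMAD signaling (log2 fold change 0.22).

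To see which of these differences were present without TGFβ, the sites were compared among the control libraries, which share no library with the 6. Neither the labels nor the methods say whether libraries with and without TGFβ came from separate cultures or animals. The comparisons may therefore not be independent. Without the third descending control library, 4631 of 14644 genes (31.6%) differed there. Among the 13497 genes tested in both comparisons, 2816 were called in both, which is 57.6% of the 4893 calls under TGFβ and 64.3% of the 4381 without it. Of these, 2624 had the same direction and 192 the opposite one. Of 986 calls past 2-fold under TGFβ, 717 (72.7%) were called in the same direction without it. The difference between the site effects was tested with the interaction term. Over all 12 libraries edgeR called 118 of 14637 genes (0.806%), and 1464 at an unadjusted p under 0.05. When the third descending control library was left out, 2022 of 15013 genes (13.5%) were called, whereas leaving out any other library gave 25 to 131. The number that passed thus depends on that library.

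Of the named matrix genes, Eln had the site effect that differed most between the conditions. In the control libraries, scaled over all 12, it was at 1468 to 1595 CPM in ascending fibroblasts, at 118 and 135 CPM in descending replicates 1 and 2 and at 101.4 CPM in the third, a log2 difference of 3.62 without the third, against 0.63 under TGFβ (interaction -3.07, SE 0.15, adjusted p = 1.4e-05, and -2.98, adjusted p = 1.9e-18 without the third descending control). The site difference of Eln was thus smaller with TGFβ. Gdf6 was likewise further apart without TGFβ (5.35) than with it (3.68; interaction -1.79, SE 0.20, adjusted p = 0.0041, and -1.66, adjusted p = 2.5e-08 without that library). Bmper and Col5a2 also had smaller site differences with TGFβ (interactions -1.21 and -0.53).

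Other differences between the sites were wider under TGFβ or had another sign. Cxcl12 was at 893 to 916 CPM in ascending and 1055 and 1082 CPM in descending control libraries, 743 in the third, a log2 difference of -0.22, against 1.52 under TGFβ (interaction 1.60, SE 0.18, adjusted p = 0.0041, and 1.75, adjusted p = 1.8e-16 without the third). Tgfb3 differed by -0.32 without TGFβ and by -1.33 with it (interaction -1.08, SE 0.12, adjusted p = 0.0041, and -1.01, adjusted p = 3.6e-11 without that library). Slit3 (-0.16 and -1.59), Fgf18 (-0.08 and -1.33), Col8a1 (0.19 and -0.65) and Ppm1l (-2.01 and -3.39) had lower values under TGFβ, toward the descending side. Sfrp4 (-0.20 and 1.96), Aldh1a2 (1.42 and 2.67), Col28a1 (0.23 and 1.21) and Prelp (0.49 and 1.19) had higher ones, toward the ascending side. Postn went from -1.47 without TGFβ to 0.28 with it, with 993 CPM in the third descending control library against 420.4 and 437 in the other 2 (interaction 2.28 with it and 1.75 without it).

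**Figure D5:**
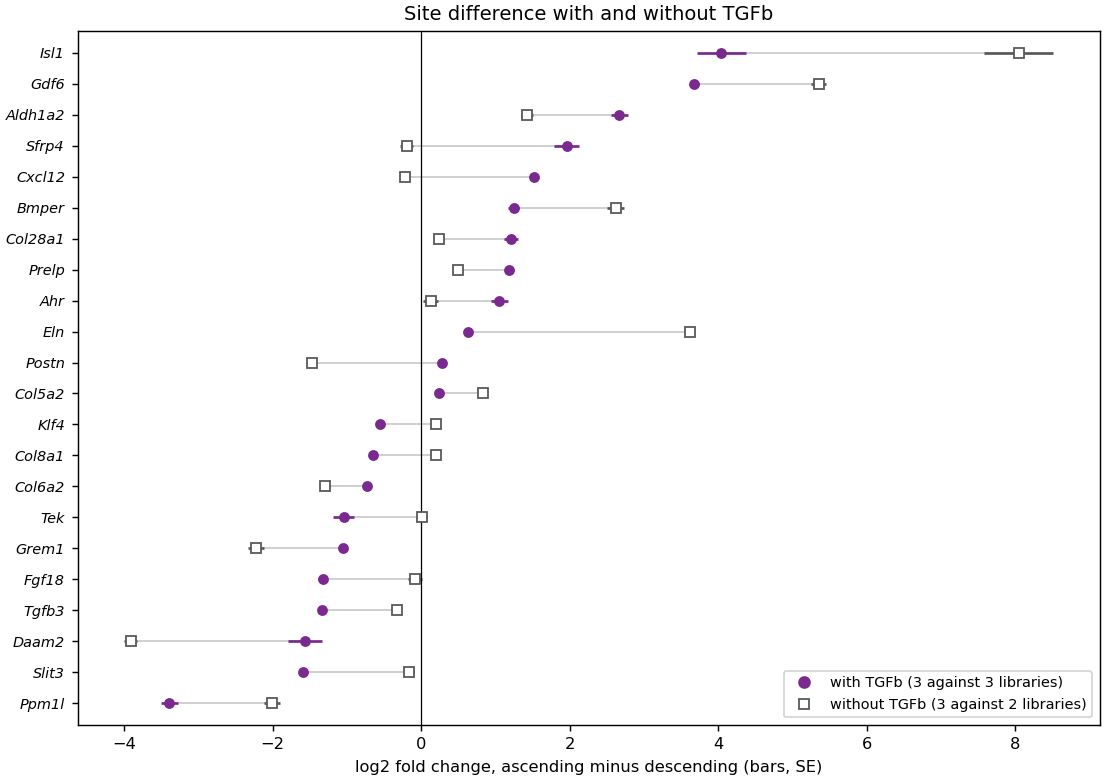
Log2 fold change between the sites with TGFβ (filled circles, 3 against 3 libraries) and without it (open squares, 3 against 2 libraries, the third descending control left out) for the 22 named genes whose interaction was called over 12 libraries, with bars for SE. Eln moves from 3.62 to 0.63, and Cxcl12 from -0.22 to 1.52. The point of Isl1 without TGFβ rests on descending libraries at or under 3 counts, and its place depends on the prior count of the fit.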

How the data were processed

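The authors deposited a table of raw counts per gene for 12 libraries. Per the labels and the submitters' processing notes, reads were processed with FastQC, STAR, featureCounts, DESeq2 and build mm10. Tool versions, strand setting and treatment of reads with several hits are not given in the sources used here. Sites were compared under TGFβ with edgeR 4.0.16 (R 4.3.3): TMM factors over the 6 libraries, filterByExpr (13678 of 54352 genes kept), quasi-likelihood F-test, Benjamini-Hochberg adjusted p under 0.05, and SE as the absolute log2 fold change over the root of F. Normalized CPM use the same factors. The interaction term was fitted over all 12 libraries. Alternatives were DESeq2 1.42.0, other scaling and filters, a replicate block, leaving out each library, and 11 or 12 libraries.

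The genes compared and the lists were chosen with earlier results of these data known. Named genes were, per direction, the 10 with the largest log2 fold change at 20 CPM or more, the 5 with the smallest adjusted p and, in each list, the 2 called members with the largest log2 fold change, plus the most abundant member and genes the study names. Further genes were named after their values were seen. Some genes are not reported here. Gene positions and exon overlaps are from GENCODE vM21 (GRCm38), and promoters from RefSeq (GRCm38.p6).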

Additional observations from a re-analysis of the deposited data

Results flagged for a closer look

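In 22 named genes the site difference under TGFβ differed from that without it, by the interaction term of edgeR over all 12 libraries. Over all 14637 genes tested, 118 (0.806%) were called. Eln, Gdf6, Tgfb3, Col8a1, Col5a2, Col28a1, Klf4 and Ahr are among those that the study named from its own interaction test of these libraries. Their calls are thus no separate evidence. A negative value means that the difference, ascending minus descending, was lower with TGFβ. It was negative for Isl1 (-4.24), Eln (-3.07), Gdf6 (-1.79), Slit3 (-1.57), Ppm1l (-1.38), Bmper (-1.21), Fgf18 (-1.08), Tgfb3 (-1.08), Tek (-1.06), Col8a1 (-0.85), Klf4 (-0.81) and Col5a2 (-0.53). The descending control libraries of Isl1 were at or under 3 counts, so that the size of its fitted value depends on the prior count and is no bound. It was positive for Sfrp4 (2.52), Daam2 (2.46), Postn (2.28), Cxcl12 (1.60), Grem1 (1.43), Aldh1a2 (1.16), Ahr (1.05), Col28a1 (1.04), Prelp (0.76) and Col6a2 (0.67). Adjusted p ran from 1.4e-05 for Eln to 0.049 for Col6a2. Without the third descending control library each kept its sign and its call, with adjusted p up to 0.0044, for Isl1, and the value moved most for Postn, to 1.75.

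Of these, Daam2, a Wnt pathway regulator of the cytoskeleton, differed by -3.91 without TGFβ, the third descending control library left out, and by -1.57 with it. Grem1 differed by -2.22 without TGFβ and -1.05 with it, and Col6a2 by -1.29 and -0.73. Tek, a receptor of the endothelial list, was near equal without TGFβ (0.01) and lower in ascending fibroblasts with it (-1.04). Klf4, a zinc finger factor of cell state, went from 0.20 to -0.55, and Ahr, the aryl hydrocarbon receptor gene, from 0.13 to 1.05.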

How the results depend on the processing

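Fitted with all 12 libraries, the calls between the sites under TGFβ dropped to 1106, 530 of them on the ascending and 576 on the descending side, and with 11 libraries they came to 4941, a fit added after seeing the data. A difference over 1 on the log2 scale was required in addition for 1051 calls (519 and 532). Leaving out 1 library each gave 4340 (without ascending replicate 1) to 4656 (without descending replicate 2) calls, 2162 to 2322 on the ascending and 2170 to 2334 on the descending side. DESeq2 made 3957 calls, of which 3859 were shared, all in the same direction. DESeq2 size factors gave 4945, no filter 4959 and a mean of at least 1 CPM 4716. Deviations of same-numbered libraries of the sites correlated at 0.015, 0.0055 and 0.053, and those of differently numbered ones at -0.056 to 0.038. No pairing by number stood out. These values cannot tell whether libraries of the sites share animals or cultures. The replicate block gave 5056 calls, of which 4907 were shared, and 50 for the interaction.

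The interaction calls, 118 over 12 libraries, numbered 418 by DESeq2, 56 without a filter, 67 with a log2 difference over 1 in addition, and 25 (without ascending TGFβ replicate 3) to 2022 (without descending control replicate 3) when 1 library was left out. Leaving out descending TGFβ replicate 1, 2 or 3 gave 45, 35 or 40 calls, ascending control replicate 1, 2 or 3 gave 34, 47 or 35, and ascending TGFβ replicate 1 or 2 gave 37 or 35. Why these counts moved was not tested.

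Of 304 named genes tested, 286 were called, 269 of them in every alternative that tested them except the fit of 12 libraries and 186 in that one too. None changed direction where tested; the filter of 1 CPM left some low genes out. The fit of 12 libraries moved 57 of 82 list counts by over 1.5 times. Among genes higher in descending fibroblasts, collagen chains were then 12, contractile genes 11, and adipogenic genes 8, and cell cycle genes higher in ascending fibroblasts were 18, while HOX genes higher in descending fibroblasts, at 16, moved by less. A gene under 3 counts per library could not be told from an absent one at this depth.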
